A study of Homo sapiens with 4 samples.

Results

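The G1 cyclins and the inhibitors of the kinases they drive were measured in cells of the human Ewing sarcoma line A673 after exposure to the curaxin CBL0137. The 10 genes, taken as a named family and looked up by symbol among 60617 genes counted, were the inhibitors CDKN1A, CDKN1B, CDKN1C, CDKN2C and CDKN2D and the cyclins CCND1, CCND2, CCND3, CCNE1 and CCNE2. All 10 were found and all 10 passed the filter on low counts. The treated cells received CBL0137 at 1 µM for 24 h, and the control cells received its solvent DMSO for 24 h, with 2 RNA-seq libraries for each. A673 is a single line, driven by a fusion of EWSR1 to FLI1, and cells of both conditions share this background. CBL0137 binds DNA and traps the histone chaperone FACT on chromatin.

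D-type cyclins switch on CDK4 and CDK6, and E-type cyclins switch on CDK2. These kinases phosphorylate the retinoblastoma protein, which frees E2F factors to start DNA replication. INK4 proteins such as CDKN2C and CDKN2D bind CDK4 and CDK6 alone, whereas the Cip/Kip proteins CDKN1A (p21), CDKN1B (p27) and CDKN1C (p57) bind cyclin-CDK complexes and block CDK2. CDKN1A is known for its induction by stress and DNA damage, and CCND1 is a gene that EWS-FLI1 is known to activate in Ewing sarcoma.

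Gene counts summed to between 20483714 and 23373554 per library. Chi-square over degrees of freedom was 2.47 between CBL0137 replicates, 2.02 between DMSO replicates and 18.5 to 21.4 across conditions, so each pair of replicates differed by more than counting noise. The labels do not say whether replicates were separate cultures, so p-values cover only how far these libraries scatter, and that scatter may be technical. Of 8 Ewing sarcoma markers all were tested, with CD99 at 1562 to 1584 CPM (counts scaled to library size with TMM factors) in CBL0137 and 1589 to 1592 CPM in DMSO, and NKX2-2 at 53.5 to 58.5 CPM in CBL0137 and 47.4 to 50.2 CPM in DMSO. CCK, a neuropeptide gene, was scarce and rose (3.67 and 3.28 CPM in CBL0137, 1.71 and 0.799 CPM in DMSO; log2 fold change 1.46 ± 0.29). NR0B1 (0.29 ± 0.04), NKX2-2 (0.20 ± 0.06), PRKCB (-0.23 ± 0.03) and EWSR1 (-0.19 ± 0.04) had adjusted p-values under 0.05 by edgeR within a 1.5-fold limit. Of the 8 markers, 1 (CCK) passed both limits as higher, against 6.88% of all genes tested. On the adjusted p alone 3 were higher, against 17.5% of genes, and 2 were lower, against 19.0%. The list's median was 0.05.

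The comparison asked how the transcripts that gate entry into S phase stood after exposure. CDKN1A rose 1.72-fold in CBL0137. The other inhibitors CDKN1B, CDKN2C and CDKN2D had adjusted p-values under the limit and differences of -30.7%, -33.2% and -24.2% in CBL0137, none of which passed the fold limit. CCND1, the most abundant of the 10, differed by -4.80%, and CCND3, CCNE1, CCNE2, CCND2 and CDKN1C did not pass the test. A gene was called at an adjusted p under 0.05 from edgeR's quasi-likelihood test, adjusted by Benjamini-Hochberg over 17309 genes, and a fold above 1.5, both cut-offs being those the submitters state. By this rule 1 of 10 members was called (9.61% of all genes tested were), being higher, against 6.88% of genes called higher. None of the 10 was called lower by edgeR, against 2.73% of genes, while 4 had a log2 fold change below 0 at a p under 0.05, unadjusted and adjusted alike, and DESeq2 called 1. On the adjusted p alone, 5 members passed, against 36.5% of genes, of which 1 was higher, against 17.5%, and 4 were lower, against 19.0%. Groups of CPM values did not overlap for 5 of 10 members, against 66.9% of genes tested. The median log2 fold change was -0.15 over the 10 members and 0.0032 over all genes tested.

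**Figure D1:**
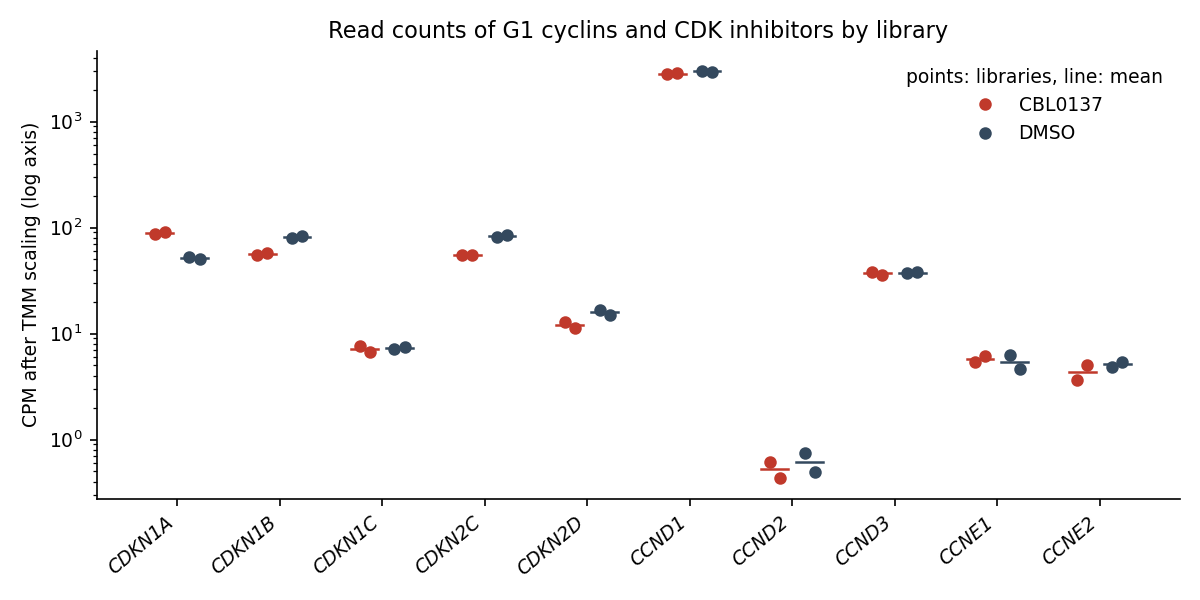
CPM after TMM scaling on a log axis for each of the 10 genes, with 1 point per library (CBL0137 left, DMSO right) and a line at the mean of 2 libraries. CDKN1A sits higher in CBL0137, at 86.7 and 91.6 CPM against 52.96 and 50.6 CPM in DMSO, while CDKN1B, CDKN2C and CDKN2D sit lower, and CCND1 lies between 2811 and 2999 CPM.

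CDKN1A (ENSG00000124762, GRCh37 chromosome 6, 36644237 to 36655114, plus strand) encodes p21, which holds CDK2 complexes inactive. It had 1821 and 2121 counts in CBL0137 replicates 1 and 2, and 1210 and 1139 counts in DMSO replicates 1 and 2. Scaled, these were 86.7 and 91.6 CPM in CBL0137, against 52.96 and 50.6 CPM in DMSO. Each treated library lay above each DMSO library, and the groups were far apart relative to their spread (89.1 ± 3.43 CPM in CBL0137 and 51.8 ± 1.68 CPM in DMSO, SD, n = 2 each). The log2 fold change was 0.78 ± 0.05 (SE), with a 95% interval of 0.67 to 0.90 and an edgeR adjusted p of 2.0e-11. Of all genes tested, 92.6% had a lower log2 fold change. In these bulk samples, more cells that express CDKN1A and more of its RNA per cell cannot be told apart. The deposited FPKM (fragments scaled to gene length and depth) gave the same order, with 27.4 and 29.4 in CBL0137 and 16.0 and 15.4 in DMSO. CDKN1A overlaps the antisense transcript DINOL, which had 1 and 0 counts in CBL0137 and 0 in each DMSO library.

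The 250 bases before the start sites of CDKN1A, CDKN1B and CDKN2C are given as the promoters of the member that rose and of the pair with the lowest log2 fold changes among the 10. They come from RefSeq (GRCh38.p14), which had windows for 6 of 10 members, and CDKN1C, CCND1, CCND2 and CCNE2 had no entry. Capitals mark GC boxes (GGGCGG) and CCAAT boxes (CCAAT), read on both strands, and adjoining or overlapping GC boxes run together. CDKN1A is chr6:36678464-36678713, CDKN1B is chr12:12717118-12717367, and CDKN2C is chr1:50968456-50968705, all on the plus strand, and the CDKN2C window was chosen among its 3 for holding most GC boxes.
CDKN1A: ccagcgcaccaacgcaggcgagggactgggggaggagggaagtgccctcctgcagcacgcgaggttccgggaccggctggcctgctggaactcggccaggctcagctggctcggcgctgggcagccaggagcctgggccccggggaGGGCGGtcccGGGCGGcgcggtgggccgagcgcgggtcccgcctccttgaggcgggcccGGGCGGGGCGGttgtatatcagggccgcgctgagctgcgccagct
CDKN1B: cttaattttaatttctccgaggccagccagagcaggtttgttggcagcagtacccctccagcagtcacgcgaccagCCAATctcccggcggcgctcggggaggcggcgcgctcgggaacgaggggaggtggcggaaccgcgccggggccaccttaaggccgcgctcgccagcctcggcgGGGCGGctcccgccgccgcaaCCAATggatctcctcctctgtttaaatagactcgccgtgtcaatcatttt
CDKN2C: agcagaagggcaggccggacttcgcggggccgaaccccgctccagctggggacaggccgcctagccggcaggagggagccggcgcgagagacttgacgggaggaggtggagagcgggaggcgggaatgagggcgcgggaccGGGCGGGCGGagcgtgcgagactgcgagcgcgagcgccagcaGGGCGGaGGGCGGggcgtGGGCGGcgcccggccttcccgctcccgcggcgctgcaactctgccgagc
CDKN1A had 4 GC boxes and 0 CCAAT boxes, CDKN1B had 1 GC box and 2 CCAAT boxes, and the CDKN2C window had 5 GC boxes and 0 CCAAT boxes. Among 35116 windows of this length, 42.6% held a GC box and 32.0% a CCAAT box. None of the 3 windows held a TATA box (TATAAA, in 10.7% of all windows), a cAMP response element (TGACGTCA, in 1.65%) or an E2F site (TTTNGCGC, in 1.51%). None held an AP-1 site (TGACTCA, in 4.20%), a CHR element (TTTGAA, in 13.3%) or an E-box (CACGTG, in 6.34%). The other CDKN2C windows differ from the one printed, since each holds 1 E-box. The window at chr1:50960495-50960744 has 0 GC boxes and 0 CCAAT boxes, and the one at chr1:50969995-50970244 has 1 of each. GC content was 76.4% for CDKN1A, 64.4% for CDKN1B and 77.2% for the printed CDKN2C window, against 45.6% and 48.8% for its other windows.

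CDKN1B (ENSG00000111276, chromosome 12, 12838432 to 12875303) encodes p27, which restrains cyclin E-CDK2 and is degraded as cells enter S phase. It had 1155 and 1331 counts in CBL0137 and 1825 and 1858 counts in DMSO, or 55.0 and 57.5 CPM in CBL0137 against 79.9 and 82.5 CPM in DMSO. The groups did not overlap. Its log2 fold change was -0.53 ± 0.05 (95% interval -0.64 to -0.42, edgeR adjusted p = 1.8e-08), inside the fold limit of 0.58. CDKN1B overlaps GPR19 on the other strand, and GPR19 had 47 and 48 counts in CBL0137 and 75 and 61 counts in DMSO, far fewer than CDKN1B. The sources used here do not give strand, so reads of overlapping genes cannot be told apart.

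CDKN1C (ENSG00000129757, chromosome 11, 2904443 to 2907005) encodes p57, an imprinted inhibitor of the same family. Its level was 7.67 and 6.74 CPM in CBL0137 and 7.22 and 7.51 CPM in DMSO, with overlapping groups. The log2 fold change was -0.03 ± 0.14, and its 95% interval of -0.33 to 0.26 spans differences between -20.4% and 19.8% (edgeR adjusted p = 0.88). Without CBL0137 replicate 2 it was 0.06, and it was also above 0 with library size alone (0.03), with upper-quartile factors (0.01) and on both FPKM scales.

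The make-up of Cip/Kip transcripts differed between conditions. On FPKM, which divides by length, CDKN1A made up 59.6% and 60.0% of the summed Cip/Kip level in CBL0137 and 39.2% and 38.1% in DMSO. CDKN1B made up 33.8% and 33.7% in CBL0137 and 52.98% and 54.8% in DMSO. CDKN1A was thus the most abundant of the family in each CBL0137 library and CDKN1B in each DMSO library. CDKN1C stayed the least abundant, at 6.59% and 6.26% in CBL0137 and 7.79% and 7.04% in DMSO. The share of CDKN1A differed by 21.1 percentage points, larger than the spread between replicates (59.8 ± 0.267% in CBL0137 and 38.7 ± 0.769% in DMSO, SD, n = 2 each). The two-sided exact permutation p was 0.333, which is the smallest that 2 libraries against 2 can give. The summed Cip/Kip FPKM was 45.9 and 49.0 in CBL0137 and 40.8 and 40.3 in DMSO.

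**Figure D2:**
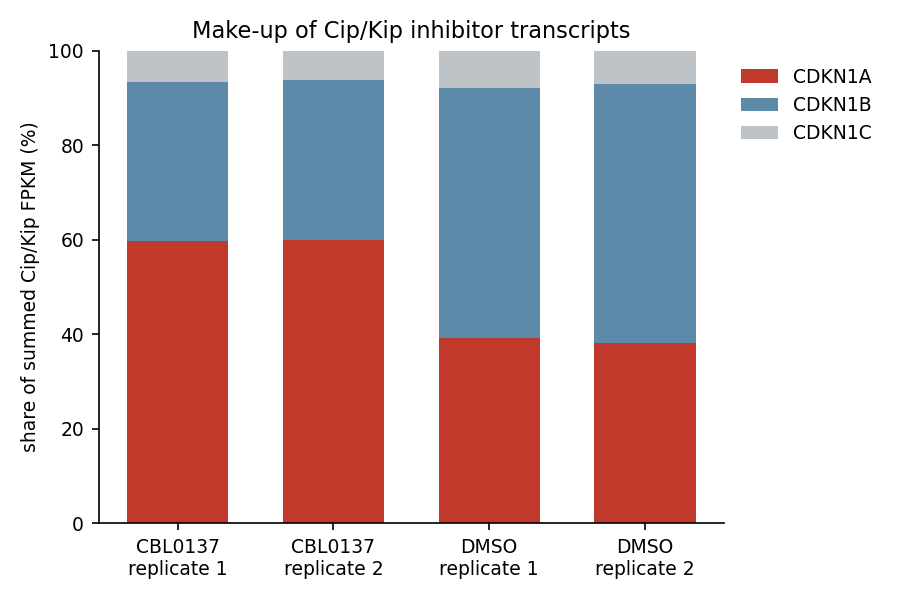
Stacked bars of the share of summed Cip/Kip FPKM (%) from CDKN1A, CDKN1B and CDKN1C in each library. CDKN1A holds 59.6% and 60.0% in the CBL0137 libraries against 39.2% and 38.1% in the DMSO libraries, and CDKN1B holds most of the remainder.

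CDKN2C (ENSG00000123080, chromosome 1, 51426417 to 51440306) encodes the INK4 inhibitor p18, which blocks CDK4 and CDK6 and is itself induced by E2F factors. It had 1166 and 1287 counts in CBL0137 and 1859 and 1911 counts in DMSO. This came to 55.5 and 55.6 CPM in CBL0137 against 81.4 and 84.9 CPM in DMSO, with no overlap. The log2 fold change of -0.58 ± 0.05 (95% interval -0.69 to -0.47, edgeR adjusted p = 3.2e-09) stood just inside the fold limit, so the call turned on small steps of processing. It was called lower under DESeq2 (-0.59, where 2.16% of genes were called lower), without DMSO replicate 1 (-0.62, 2.63%) and with every counted gene tested (-0.59, 1.60%). Its log2(FPKM + 1) difference was -0.36.

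CDKN2D (ENSG00000129355, chromosome 19, 10677136 to 10679735) encodes p19, the other INK4 inhibitor with reads. It had 270 and 259 counts in CBL0137 and 381 and 337 counts in DMSO, or 12.9 and 11.2 CPM in CBL0137 against 16.7 and 15.0 CPM in DMSO. The groups did not overlap, though replicates were spread more widely than for CDKN2C. Its log2 fold change was -0.40 ± 0.11 (edgeR adjusted p = 0.0056), and the adjusted p exceeded 0.05 without CBL0137 replicate 2 (0.074), without DMSO replicate 1 (0.062), under DESeq2 (0.080) and on both FPKM scales (0.11 each). The remaining INK4 genes CDKN2A and CDKN2B had 0 counts in every library, which allows up to 3 counts, or 0.130 to 0.143 CPM, by counting error alone. Summed over CDKN2C and CDKN2D, INK4 FPKM was 27.7 and 27.0 in CBL0137 and 35.6 and 35.9 in DMSO. The summed FPKM of all 5 inhibitors was 73.6 and 76.0 in CBL0137 and 76.4 and 76.3 in DMSO. These sums differed by -1.56 FPKM, less than the SD of 1.72 between CBL0137 replicates, though the groups did not overlap. The FPKM were not scaled with TMM factors, so the sums depend on the measure. On CPM, the INK4 sums were 68.4 and 66.7 in CBL0137 and 98.0 and 99.8 in DMSO. The Cip/Kip sums were 149 and 156 CPM in CBL0137 and 140 and 141 CPM in DMSO.

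**Figure D3:**
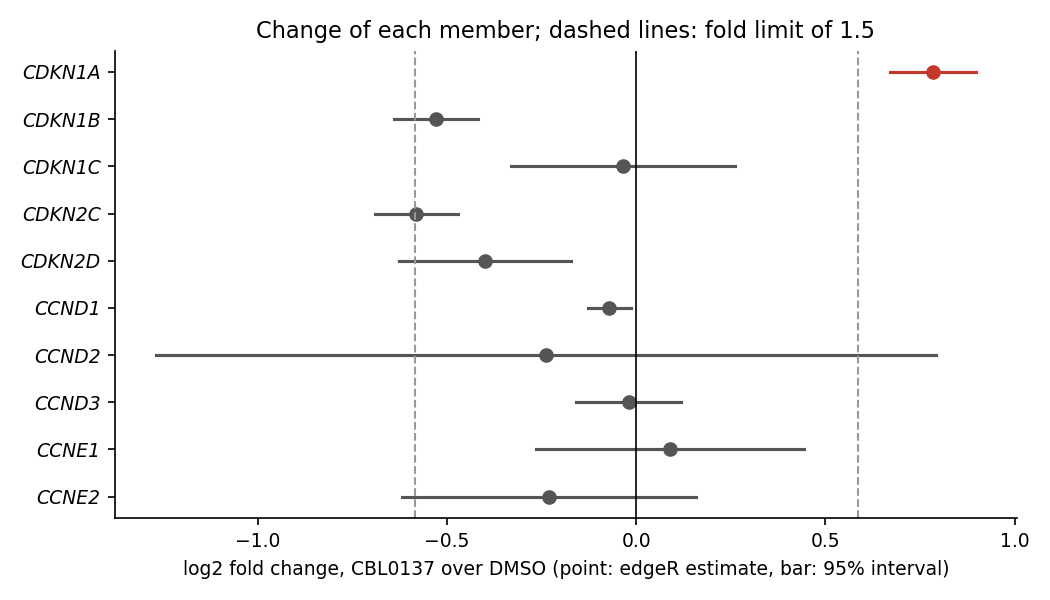
Log2 fold change of CBL0137 over DMSO for each gene (points, edgeR estimate) with its 95% interval (bars), and dashed lines at the fold limit of 1.5. The interval of CDKN1A (0.67 to 0.90) lies beyond the limit, those of CDKN1B, CDKN2C, CDKN2D and CCNE2 cross the lower limit, and that of CCND2, at -1.27 to 0.79, crosses both.

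Of the cyclins, CCND1 (ENSG00000110092, chromosome 11, 69455924 to 69469242) dominated. It encodes cyclin D1, which couples growth signals to CDK4 and CDK6. Its counts were 59032 and 66218 in CBL0137 and 68516 and 66594 in DMSO, or 2811 and 2859 CPM in CBL0137 and 2999 and 2958 CPM in DMSO. By CPM it ranked 12 and 14 among all genes in CBL0137 and 13 in each DMSO library. The groups did not overlap, yet the difference was small, with a log2 fold change of -0.07 ± 0.03 (95% interval -0.13 to -0.01, edgeR adjusted p = 0.043). The 95% interval spans differences of -8.43% to -1.03% under TMM scaling. The adjusted p was 0.26 without DMSO replicate 1 and 0.11 without DMSO replicate 2 in edgeR. The value was -0.01 under library size alone (adjusted p = 0.81), and its sign turned on log2(FPKM + 1) (0.0041), where FPKM was 536 and 556 in CBL0137 and 552 and 537 in DMSO. CCND1 overlaps 1399 bases of LTO1 on the other strand, and LTO1 had 1215 and 1370 counts in CBL0137 and 1144 and 1125 counts in DMSO.

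CCND3 (ENSG00000112576, chromosome 6, 41902672 to 42018095), which encodes cyclin D3, had 38.1 and 36.1 CPM in CBL0137 and 37.4 and 37.7 CPM in DMSO. The groups overlapped, and the log2 fold change was -0.02 ± 0.07 (95% interval -0.16 to 0.12, edgeR adjusted p = 0.85). Its FPKM diverged from its counts, at 10.4 and 15.4 in CBL0137, where counts were 800 and 835, and at 13.5 and 13.9 in DMSO. CCND2 (ENSG00000118971, chromosome 12, 4378937 to 4414519), which encodes cyclin D2, was close to the filter, with 13 and 10 counts in CBL0137 and 17 and 11 in DMSO. At that depth the 95% interval spanned differences of -58.5% to 73.1% (log2 fold change -0.24 ± 0.50, edgeR adjusted p = 0.75). CCND1 supplied 98.1% and 97.3% of D-type cyclin FPKM in CBL0137 and 97.6% and 97.5% in DMSO. These shares overlapped (two-sided exact permutation p = 1.0), and the sign of their difference of 0.161 percentage points turned without CBL0137 replicate 1 (-0.235).

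E-type cyclins were low and spread widely. CCNE1 (ENSG00000105173, chromosome 19, 30302898 to 30315219), which encodes cyclin E1, had 5.38 and 6.17 CPM in CBL0137 and 6.21 and 4.66 CPM in DMSO. The DMSO libraries enclosed those of CBL0137, and the log2 fold change was 0.09 ± 0.17 (95% interval -0.27 to 0.44, edgeR adjusted p = 0.73). CCNE2 (ENSG00000175305), which encodes cyclin E2, had 3.62 and 5.05 CPM in CBL0137 and 4.81 and 5.42 CPM in DMSO. The groups overlapped (log2 fold change -0.23 ± 0.19, 95% interval -0.62 to 0.16, edgeR adjusted p = 0.37). CCNE2 overlaps INTS8 and NDUFAF6 on the other strand, which had more counts than CCNE2 in every library. Its FPKM was 0.972 and 1.01 in CBL0137 and 1.36 and 1.87 in DMSO, a wider gap than its counts gave.

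Ordered by FPKM per condition, the levels ran in CBL0137 from CCND1 (546 ± 14.2) through CDKN1A (28.4 ± 1.43), CDKN2C (21.0 ± 0.389), CDKN1B (16.0 ± 0.723), CCND3 (12.9 ± 3.54), CDKN2D (6.32 ± 0.854), CDKN1C (3.04 ± 0.0279), CCNE1 (1.98 ± 0.256) and CCNE2 (0.989 ± 0.0244) to CCND2 (0.0515 ± 0.00335; SD, n = 2 for each). In DMSO the order was CCND1 (545 ± 10.3), CDKN2C (27.4 ± 0.926), CDKN1B (21.9 ± 0.339), CDKN1A (15.7 ± 0.449), CCND3 (13.7 ± 0.301), CDKN2D (8.40 ± 0.690), CDKN1C (3.01 ± 0.244), CCNE1 (1.79 ± 0.180), CCNE2 (1.62 ± 0.363) and CCND2 (0.0843 ± 0.0534). CDKN1A stood second in CBL0137 and below CDKN2C and CDKN1B in DMSO, while every other member kept its order relative to the rest. CDKN1B and CCND3 lay within 1 SD of each other in CBL0137, as did CCNE1 and CCNE2 in DMSO. All 5 inhibitors exceeded both E-type cyclins in each condition.

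**Figure D4:**
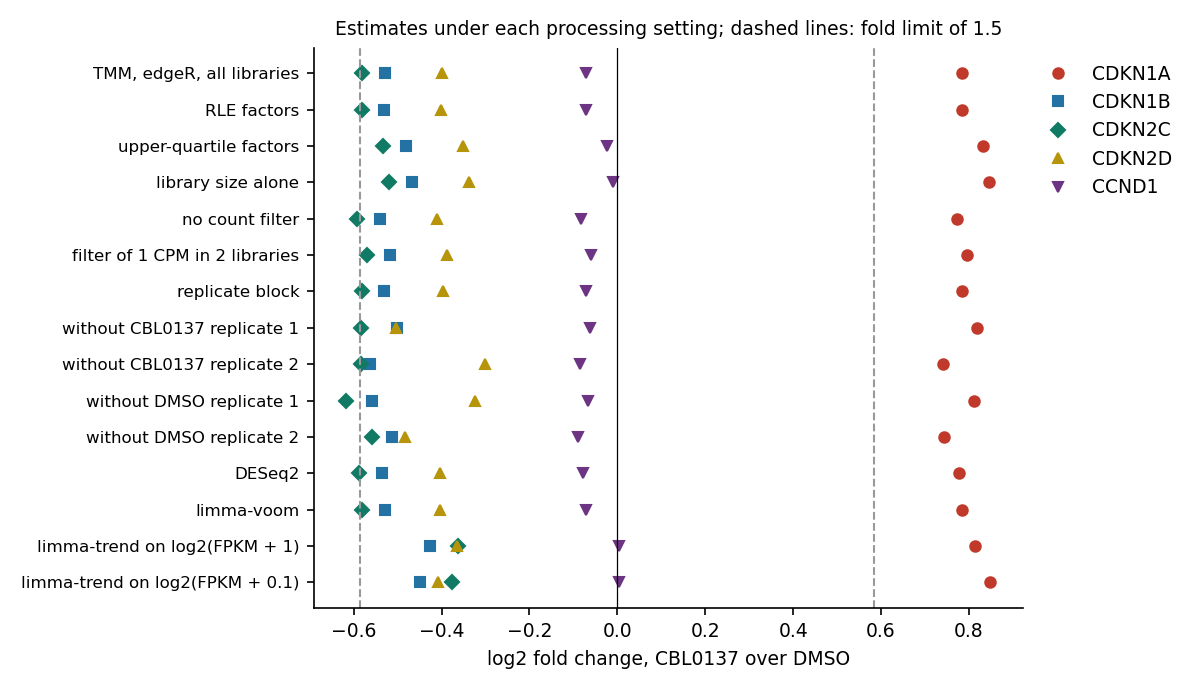
Log2 fold change of CBL0137 over DMSO for the 5 genes with an adjusted p under 0.05, under each processing setting (rows), with dashed lines at the fold limit of 1.5. CDKN1A stays between 0.74 and 0.85, CDKN2C moves across the lower limit (-0.62 to -0.36), and CCND1 reaches 0 on the FPKM scale.

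Of 8 tested G1 kinase and activator genes, 0 were called by edgeR, against 9.61% of all genes, and 3 had an unadjusted p under 0.05, against 44.8%. The median log2 fold change was -0.0065, and DESeq2 also called 0. CDK4, the main partner of cyclin D1, averaged 116.7 ± 0.488 CPM in CBL0137 and 112.4 ± 0.853 CPM in DMSO (SD, n = 2 each; log2 fold change 0.05 ± 0.04), and CDK2 had 49.3 and 45.3 CPM in CBL0137 and 56.2 and 55.9 CPM in DMSO (-0.25 ± 0.06). CDK6 measured -0.30 ± 0.09, MNAT1, a subunit of the CDK-activating kinase, -0.11 ± 0.07, and CDC37, a chaperone adaptor that loads CDK4, 0.32 ± 0.04. Of 18 genes of the ubiquitin system that acts on G1 cyclins and inhibitors, mostly of ligases, FBXO4 fell. The other 17 were not called, against 2.73% of all genes called lower. FBXO4 had 7.67 and 7.04 CPM in CBL0137 and 10.7 and 13.2 CPM in DMSO (log2 fold change -0.71 ± 0.13). On the adjusted p alone 7 of the 18 were lower, against 19.0% of all genes, and 0 were higher, against 17.5%. SKP2 and CKS1B, which together mark p27 for degradation, measured -0.30 ± 0.04 and -0.38 ± 0.04, and RBX1, the RING subunit, -0.26 ± 0.05. The median of this list was -0.06.

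The levels of S phase genes listed as E2F-driven were mostly lower, and any link to the changes of the 10 members was not tested. Among 25 S phase genes with a median log2 fold change of -0.35, the 4 called ones fell, against 2.73% of all genes called lower. On the adjusted p alone 21 of the 25 were lower, against 19.0% of all genes. RRM2, a subunit of ribonucleotide reductase, had 169 and 164 CPM in CBL0137 and 344 CPM in each DMSO library (-1.05 ± 0.04), and RRM1 (-0.62 ± 0.04), the thymidylate synthase gene TYMS (-0.68 ± 0.08) and the helicase component CDC45 (-0.62 ± 0.06) also fell. MCM7 and PCNA measured -0.39 ± 0.03 and -0.44 ± 0.04. Of 18 RB and E2F genes, E2F8, a repressor E2F, fell (13.7 and 14.03 CPM in CBL0137, 26.4 and 26.8 CPM in DMSO; -0.94 ± 0.09). The other 17 were not called, against 2.73% of all genes called lower, and the list median was -0.08. On the adjusted p alone 6 of the 18 were lower, against 19.0% of all genes, and 2 were higher, against 17.5%. TFDP1 (-0.27 ± 0.04), LIN52 (-0.50 ± 0.09) and E2F2 (-0.28 ± 0.06) had the next smallest adjusted p-values. Of 19 other cyclins, CCNA2, CCNB2, CCNF and CCNG2 fell, against 2.73% of all genes called lower, and 15 were not called. The median of this list was -0.03. CCNA2, the S phase and mitotic cyclin, had 107 and 110 CPM in CBL0137 and 180 and 190 CPM in DMSO (-0.77 ± 0.04). CCNB2 (-0.64 ± 0.05), a mitotic cyclin, CCNF (-0.87 ± 0.05), a ubiquitin ligase adaptor, and CCNG2 (-0.72 ± 0.09) fell as well, and CCNB1 measured -0.46 ± 0.04.

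**Figure D5:**
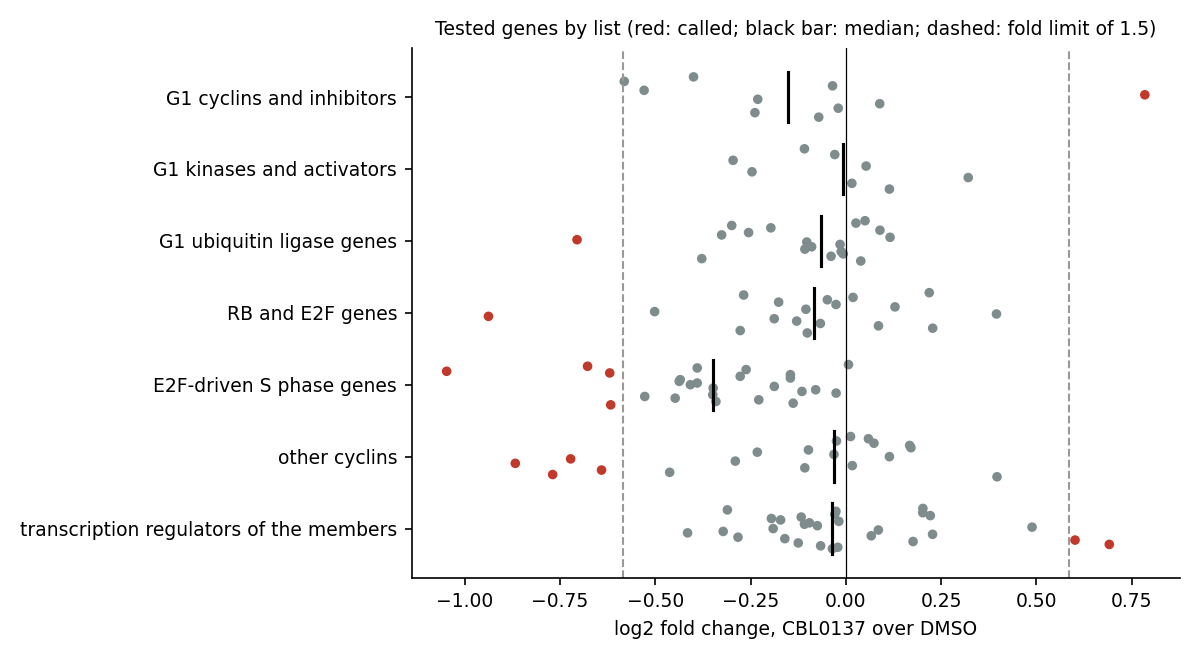
Log2 fold change of CBL0137 over DMSO for every tested gene of each list, with called genes in red, a black bar at the list's median and dashed lines at the fold limit of 1.5. The S phase genes have a median of -0.35, and CDKN1A is the only called gene among the G1 cyclins and inhibitors.

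Among 29 genes for transcription factors known to act on the members, ETS1 rose, with 16.9 and 17.4 CPM in CBL0137 and 10.8 and 10.5 CPM in DMSO (log2 fold change 0.69 ± 0.10). FOSL1, an AP-1 subunit, rose as well, with 14.6 and 14.7 CPM in CBL0137 and 9.85 and 9.46 CPM in DMSO (0.60 ± 0.11). The other 27 were not called, the share that rose was close to the 6.88% over all genes, and the median was -0.04. KLF6 measured -0.32 ± 0.05 and STAT3 0.22 ± 0.04.

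The nearest tested protein-coding genes on each side of CDKN1A on chromosome 6 differed in direction, and a change over the wider region was not tested. SRSF3, a splicing factor gene 70860 bases away on the side of lower coordinates, had 303 and 295 CPM in CBL0137 and 374 and 353 CPM in DMSO (-0.28 ± 0.04, not called). CPNE5, a copine gene 53438 bases away on the other side, rose (2.76 and 3.07 CPM in CBL0137, 1.58 and 1.999 CPM in DMSO; 0.71 ± 0.26, edgeR adjusted p = 0.033). Among 11338 other genes averaging 5 CPM or more, the profiles over the 4 libraries nearest to that of CDKN1A, each centred on its DMSO mean, were those of COL16A1, BBS12 and COL1A1, at Euclidean distances of 0.0115, 0.0189 and 0.0202 on the log2 scale. COL1A1 had 363 and 379 CPM in CBL0137 and 221 and 208 CPM in DMSO.

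Markers of other cell types were read beside these results. Over all genes tested, 6.88% were called higher by edgeR and 17.5% were higher on the adjusted p alone. Of 6 tested epithelial markers, 4 were called higher (1 by DESeq2), among them CLDN3 and RAB25 at few counts. The summed level of all 12 was 471 to 500 CPM in CBL0137 and 298 to 300 CPM in DMSO. Nearly all came from KRT18 (0.79 ± 0.04) and KRT8 (0.59 ± 0.04, just above the fold limit of 0.58). The deposited FPKM of KRT18 was 277 and 304 in CBL0137 and 159 and 152 in DMSO. That of KRT8 overlapped between groups, at 29.9 and 11.6 in CBL0137 and 19.8 and 14.1 in DMSO. CLDN3 (1.43 ± 0.53) and RAB25 (2.10 ± 0.66) were called at levels under 1 CPM in every library. CLDN3 had 19 and 18 counts in CBL0137 and 10 and 4 in DMSO, and RAB25 had 10 and 16 in CBL0137 and 3 in each DMSO library. Both passed the filter on low counts only through their CBL0137 libraries, so their calls are no separate evidence of a rise. ELF3 (1.19 ± 0.48) and CLDN4 (0.67 ± 0.40) were not called. The 6 untested markers were at or near 0, with 0 counts for GRHL2 in every library and 0 to 14 counts for EPCAM, CDH1, ESRP1, KRT5 and KRT14. Of 3 tested blood markers, ITGAM rose (0 of the list by DESeq2), and the 12 summed to 7.90 to 8.33 CPM in CBL0137 and 5.68 to 5.69 CPM in DMSO, with 0 counts for CD3E, CD3D, MS4A1 and HBB. Of 10 tested neuronal markers, INA rose, and the 12 summed to 819 to 831 CPM in CBL0137 and 1011 to 1020 CPM in DMSO. The lower sum came from UCHL1 (-0.50 ± 0.03) and SYT1 (-0.42 ± 0.04), whereas 4 of the 10 were higher on the adjusted p alone, among them SYP (0.48 ± 0.10), GAP43 (0.46 ± 0.10) and SNAP25 (0.32 ± 0.10), and the median was 0.20. The part of these 3 marker lists in the rise of CDKN1A was not tested. Mitochondrially encoded genes took 5.82% to 5.92% of counts in CBL0137 and 5.87% to 5.88% in DMSO.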

How the data were processed

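RNA of A673 cells was measured in 2 CBL0137 and 2 DMSO libraries. Trim Galore removed adapters, HISAT2 aligned reads to hg19 and HTSeq 0.11.1 gave the count per gene that was deposited, as the submitters' processing notes and design text say; the authors then ran DESeq2 1.26.0. A mouse build is also named, with no use given. The deposited FPKM were made by the authors from reads, gene length and depth. They are a separate estimate, since 4663 genes with 0 counts hold an FPKM above 0. Strand, RNA selection and annotation release are not given in the sources used here.

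Of 60623 rows, 6 name no gene, 5 of them HTSeq summary rows that held 23.7% to 24.8% of reads per library, and stayed out. GENCODE release 44 lifted to GRCh37 (hg19) named 58524 of 60617 IDs. The test was edgeR 4.0.16 (R 4.3.3) with TMM factors, filterByExpr (minimum count 10) and a quasi-likelihood test with condition as the only term, tested on simulated data; the standard error is the log2 fold change over the square root of F. Intervals and floors cover counting error or library spread only. Alternatives were RLE, upper-quartile and no factors, other count filters, DESeq2 1.42.0, limma-voom and limma-trend (limma 3.58.1) on log2(FPKM + 1) or + 0.1 where 2 libraries reach an FPKM of 1, the replicate number as a block and each library left out.

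Members and lists were chosen with earlier results of these data known. Genes named are the members, the 4 genes of smallest adjusted p and the called genes of each pathway list, the nearest tested protein-coding neighbours of called members, and the 3 nearest profiles among genes with at least 5 CPM; CDK4 and genes named as overlapping or as markers are additions chosen after their values were seen. Shares used a two-sided exact permutation test. Results that need items withheld for evaluation are not reported here. Tables were made with Python 3.11.15, pandas 2.3.3 and matplotlib 3.10.9.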

Additional observations from a re-analysis of the deposited data

How the results depend on the processing

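CDKN1A was called higher under each of 14 alternatives, with log2 fold changes of 0.74 to 0.85, while 2.74% to 8.34% of genes were called higher. The count of members called lower was 0, but 1 with no count filter and under DESeq2, and 0 to 1 with a library left out; that member was CDKN2C, whose estimate lies at the fold limit. CDKN1B kept its sign and an adjusted p under 0.05 in all 14 without being called (-0.56 to -0.43). CDKN2D kept its sign in 14 and its adjusted p under 0.05 in 9, and CCND1 its sign in 12 and its adjusted p in 6. The call count over all genes was 1663, against 919 with DESeq2, 577 on log2(FPKM + 1), 726 on log2(FPKM + 0.1), and 1343 to 1591 with a library left out. The CCND1 share of D-type cyclin FPKM differed by 0.161 percentage points, against -0.0434 from counts without length and -0.235 to 0.557 with a library left out; the CDKN1A share of Cip/Kip FPKM differed by 20.6 to 21.7 with a library left out and by 21.5 from counts. Upper-quartile factors and library size alone moved the median of all genes by 0.05 and 0.06. With the replicate number as a block, 1576 genes were called, CDKN1A stood at 0.78 and the edgeR adjusted p of CCND1 was 0.072. Same-numbered libraries deviated from their group means with a correlation of -0.0899. With 2 libraries per group this rests on a single contrast, so it cannot show whether same-numbered libraries were paired. With a library left out, the lone library of its condition is assumed to vary like the other condition. Depth limits CCND2, CCNE1 and CCNE2 most, at 10 to 143 counts per library.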
